A study of Homo sapiens with 36 samples.

Results

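The 10 genes described here govern the G1 phase of the cell cycle: the CDK inhibitors CDKN2C, CDKN2A, CDKN2B, CDKN2D, CDKN1B and CDKN1C, the D cyclins CCND1 and CCND2, and the kinases CDK4 and CDK6. CDKN2C was chosen by its CPM in these same libraries, where MEIS2 activation raised its mRNA, and the other 9 were listed because they belong to the same pathway. All 10 were found among the 28516 genes of the deposited count table, and all 10 passed the filter of at least 10 counts summed over the libraries, as did 19689 genes in all. Since the MEIS2-OE libraries chose CDKN2C, its values in comparisons that contain them are given as a description, without a test.

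RNA-seq was performed on human neural stem cells (hNSC), a commercial line of self-renewing neural progenitors, 48 h after lentiviral infection, with 6 libraries in each of 6 conditions. For MEIS1-OE and MEIS2-OE, activation by CRISPR directed a Cas9 without cutting activity, fused to VP64 and joined by further activation domains through the MS2 loops of the guide RNA, to the MEIS1 or MEIS2 gene, and ctrl-OE received the same machinery with a non-targeting guide. In MEIS1-KO and MEIS2-KO, cutting Cas9 was delivered with a pair of guides against MEIS1 or MEIS2, mixed in equal parts, and ctrl-KO received cutting Cas9 with non-targeting guides. Every condition is a pool of infected cells and not a clone, and the controls carry virus, Cas9 and guide RNA as well. OE and KO libraries thus differ in their vectors, and the labels do not say whether the 6 libraries of a condition came from separate cultures, so p-values measure the spread between these libraries, which may be technical.

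The libraries held 15429985 to 22940493 counts each. As a check of the labels, MEIS1 mRNA had a log2 fold change of 4.12 in MEIS1-OE and of -1.52 in MEIS1-KO against the respective control, and MEIS2 mRNA of 5.19 in MEIS2-OE and of -1.10 in MEIS2-KO. The neural stem cell markers NES and SOX2 were expressed in every library, at 823 to 2115 CPM and 86.4 to 322 CPM, where CPM is the count scaled to library size after TMM normalisation. DCX and STMN2 of neurons, GFAP of astrocytes, SOX10 and MBP of oligodendrocytes and POU5F1 and NANOG of pluripotent cells stayed at 1.49 CPM or lower in every library. Less specific genes of these lists were expressed, such as the neuronal genes MAP2 (208 to 818 CPM) and SYT1 (30.1 to 58.7 CPM) and the mesenchymal gene COL1A1 (24.0 to 102 CPM).

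As background, progression from G1 into S phase depends on CDK4 and CDK6, kinases that become active when bound by a D cyclin and that phosphorylate the retinoblastoma protein, which then releases E2F transcription factors. The INK4 inhibitors, encoded by CDKN2A, CDKN2B, CDKN2C and CDKN2D, bind CDK4 and CDK6 and keep the D cyclins from activating them, whereas the CIP/KIP inhibitors, encoded by CDKN1A, CDKN1B and CDKN1C, bind complexes of cyclins with several CDKs, above all those with CDK2. In the developing nervous system, INK4 and KIP inhibitors are known for the arrest of progenitors that leave the cell cycle. MEIS1 and MEIS2 are TALE homeodomain transcription factors whose preferred DNA site contains the core TGACAG.

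CDKN2C, which encodes the INK4C protein, lies on the plus strand of chromosome 1, at chr1:51426417-51440306 of GRCh37. Stretches around its annotated starts are shown because this is the member that moved most, and copies of the MEIS core are set in capitals. The RefSeq start windows, from 250 bases before to 50 bases after a start and located in GRCh37 by exact match, were searched on both strands for TGACAG and its reverse complement CTGTCA. CDKN2C has 3 such windows. The first holds 2 copies, 70 and 50 bases before the start, both as CTGTCA. The second holds 0. The third holds 2 copies, 226 bases before and 21 bases after the start. Printed are the 250 bases before the first start and 30 bases around each copy of the third window, all on the plus strand.
CDKN2C, before the first start, chr1:51426167-51426416: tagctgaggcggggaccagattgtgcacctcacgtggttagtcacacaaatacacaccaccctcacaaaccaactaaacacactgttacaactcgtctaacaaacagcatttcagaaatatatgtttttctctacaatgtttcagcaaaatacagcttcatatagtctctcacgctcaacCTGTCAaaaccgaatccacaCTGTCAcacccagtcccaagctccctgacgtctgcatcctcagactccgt
CDKN2C, the third start, upstream copy, chr1:51435679-51435708: agcgtaggtacgTGACAGctctgcctacat
CDKN2C, the third start, downstream copy, chr1:51435926-51435955: atcccagtccttCTGTCAgtctccgatgcc

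Of the 35116 RefSeq start windows of the same length, 15.8% held at least 1 copy of the core and 1.72% held at least 2. Windows were found for 7 of the 10 members, and CDKN2C was the 1 of those 7 with a copy. Among all 27305 genes with windows, 18.6% had a copy in at least 1 of them, so the count among the members is near that share. CDK4, CDK6, CDKN1B, CDKN2A, CDKN2B and CDKN2D had windows without one, and no window was used for CDKN1C, CCND1 and CCND2. FAF1, which starts 478 bases from CDKN2C in the opposite direction, had 2 copies in its own window. These letters are a description of the sequence and show no binding, and partial matches of the activation guides near these genes were not analysed here.

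CDKN2C mRNA was lowest in MEIS1-OE and highest in MEIS2-OE, with the other 4 conditions between them. The 6 ctrl-OE libraries had 4.79 to 5.86 CPM with a median of 5.26 CPM. In MEIS2-OE the lowest library had 26.4 CPM, the median was 30.4 CPM and the highest was 32.5 CPM. All 6 MEIS2-OE libraries thus lay far above all 6 controls. The means were 30.0 ± 2.44 CPM (SD, n = 6) and 5.29 ± 0.463 CPM (SD, n = 6), a ratio of 5.68 and a log2 fold change of 2.50 with a standard error of 0.09, over 12 alternatives 2.46 to 2.54. In bulk RNA, more cells that express a gene and more RNA per cell cannot be told apart.

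In MEIS1-OE, CDKN2C had 2.14 to 3.47 CPM with a median of 2.77 CPM. Every MEIS1-OE library was below every ctrl-OE library. The share of all genes with ranges separate between conditions was not counted, here or for the comparisons that follow, so such separation is not read as particular to a gene. The mean of 2.73 ± 0.458 CPM (SD, n = 6) was 0.515 times that of ctrl-OE, and CDKN2C fell (log2 fold change -0.96 ± 0.11, SE) with an adjusted p of 2.05e-08 in edgeR's quasi-likelihood test. This comparison uses the ctrl-OE libraries that also took part in the choice of the gene, in which a low level favoured it. The call held under all 12 alternatives, with adjusted p-values up to 2.94e-05. The direct difference between MEIS1-OE and MEIS2-OE was a log2 fold change of -3.46, again a description only.

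The MEIS2-KO comparison does not contain the activation libraries that raised CDKN2C, although the gene was picked with earlier results of all libraries known. The ctrl-KO libraries had 4.78 to 8.04 CPM with a median of 6.66 CPM, and the MEIS2-KO libraries 3.75 to 4.83 CPM with a median of 4.49 CPM. The ranges touched through 1 control library, ctrl-KO replicate 2 at 4.78 CPM, and the other 5 controls lay above all MEIS2-KO libraries. CDKN2C fell in MEIS2-KO, from 6.58 ± 1.04 CPM to 4.33 ± 0.436 CPM (SD, n = 6 each), with a log2 fold change of -0.60 ± 0.10 (SE) and an edgeR adjusted p of 2.02e-04. Under the 12 alternatives the highest adjusted p was 0.00525. The difference between the MEIS2-OE and the MEIS2-KO effect, called the MEIS2 contrast, was 3.10 on the log2 scale and is given without a test.

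In MEIS1-KO the CDKN2C libraries spanned 4.77 to 6.57 CPM with a median of 5.26 CPM and overlapped with ctrl-KO. The log2 fold change of -0.28 had an unadjusted 95% interval from -0.48 to -0.07 and an edgeR adjusted p of 0.210. The 2 knockouts share their ctrl-KO libraries. Set against each other directly, MEIS1-KO was 0.32 higher on the log2 scale than MEIS2-KO, with an unadjusted 95% interval from 0.11 to 0.54 and an adjusted p of 0.855. The MEIS1 contrast, the MEIS1-OE effect minus the MEIS1-KO effect, was -0.68 ± 0.15 (SE) with an adjusted p of 0.00406, and it was lost without replicate 4 (adjusted p = 0.0640). This contrast too contains the ctrl-OE libraries that took part in the choice of CDKN2C, so its p-value is not independent of that choice.

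By mean level the 6 conditions ran from MEIS2-OE over ctrl-KO (6.58 CPM), MEIS1-KO (5.43 CPM), ctrl-OE (5.29 CPM) and MEIS2-KO (4.33 CPM) to MEIS1-OE (2.73 CPM). Neighbours in the middle of that order overlapped: MEIS1-KO with ctrl-KO and with ctrl-OE, and ctrl-OE with MEIS2-KO by 1 library of each. MEIS2-OE and MEIS1-OE were the conditions whose ranges were separate from all others.

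**Figure D1:**
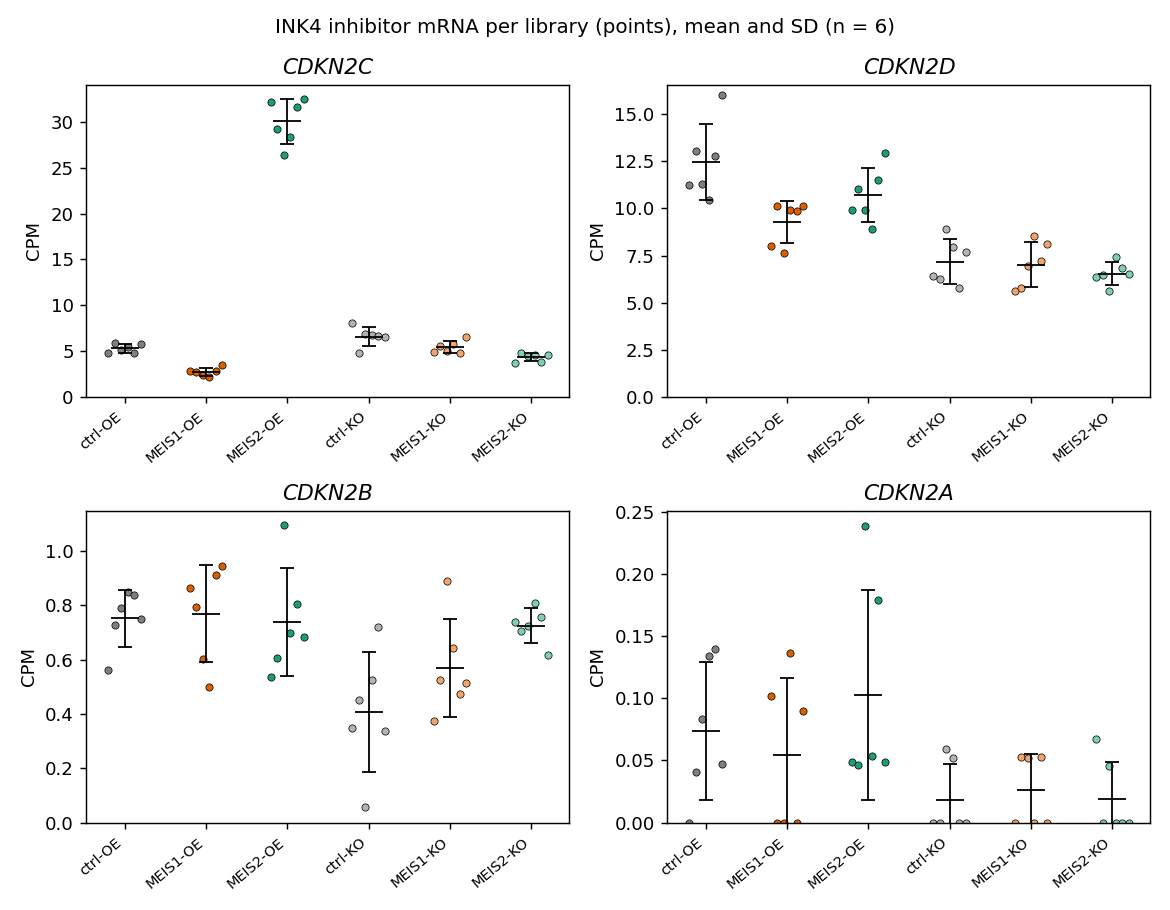
mRNA of the 4 INK4 inhibitor genes in CPM (vertical axes, linear, each with its own range) for the 6 conditions, with 1 point per library and bars for mean and SD (n = 6). All 6 MEIS2-OE libraries lie between 26.4 and 32.5 CPM for CDKN2C, whereas CDKN2A stays at 0.238 CPM or lower in every library.

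For the other INK4 genes, no test passed in MEIS2-OE. CDKN2D, which encodes the INK4D protein at chr19:10677136-10679735 (minus strand), had 10.5 to 16.0 CPM in ctrl-OE with a median of 12.0 CPM. It had 8.93 to 13.0 CPM in MEIS2-OE with a median of 10.5 CPM, and the log2 fold change of -0.22 ± 0.11 (SE) had an edgeR adjusted p of 0.657. In MEIS1-OE all 6 libraries, from 7.65 to 10.1 CPM with a median of 9.89 CPM, were below all ctrl-OE libraries. There CDKN2D fell, its log2 fold change being -0.42 ± 0.11 (SE) with an adjusted p of 0.00790, no higher than 0.0304 under any alternative. CDKN2C and CDKN2D were thus both lower in MEIS1-OE than in ctrl-OE, where 9.10% of all genes tested passed in either direction. In the knockouts, CDKN2D had medians of 7.05 CPM (ctrl-KO), 7.07 CPM (MEIS1-KO) and 6.51 CPM (MEIS2-KO), with log2 fold changes of -0.02 and -0.13 that did not pass.

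CDKN2B and CDKN2A, the INK4B and INK4A genes, lie beside each other on chromosome 9, at chr9:22002902-22009304 and chr9:21967751-21995300 on the minus strand. CDKN2A also gives rise to the ARF protein, whose transcripts share its counts. Both were close to the limit of these libraries: CDKN2B had 1 to 23 counts and CDKN2A 0 to 5 counts per library, where 3 counts stand for 0.131 to 0.194 CPM. CDKN2A summed to 10 counts over the 6 ctrl-OE libraries, 13 in MEIS2-OE, 7 in MEIS1-OE and 2 or 3 in each KO condition, and it passed no test. At this depth a change of CDKN2A was not detectable.

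CDKN2B had 0.338 to 0.720 CPM in 5 of the ctrl-KO libraries and 0.0589 CPM, a single count, in ctrl-KO replicate 3. The 6 MEIS2-KO libraries lay close together, from 0.617 to 0.809 CPM with a median of 0.731 CPM. CDKN2B rose in MEIS2-KO with a log2 fold change of 0.80 ± 0.26 (SE) and an adjusted p of 0.0414 in edgeR. This call was lost under 7 of 12 alternatives, with adjusted p-values up to 0.149, among them those without replicate 1, 2, 3, 4 or 6. Without replicate 3, which holds the library with 1 count, the log2 fold change was 0.59. In the activation conditions the medians were 0.770 CPM in ctrl-OE, 0.828 CPM in MEIS1-OE and 0.692 CPM in MEIS2-OE, with overlapping ranges.

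Levels of different genes were compared per kilobase of the union of annotated exons, in CPM per kb. On that scale CDKN2C made up 17.3% ± 1.85 (SD, n = 6) of the summed INK4 mRNA in ctrl-OE, 12.5% ± 1.83 in MEIS1-OE and 57.7% ± 2.58 in MEIS2-OE. In the knockout system it was 31.0% ± 4.46 in ctrl-KO, 27.4% ± 3.02 in MEIS1-KO and 24.1% ± 2.52 in MEIS2-KO. CDKN2D was the larger INK4 member in every library outside MEIS2-OE by this length, whereas CDKN2C exceeded it in 6 of 6 MEIS2-OE libraries. The order depends on the length used, since the exon union of CDKN2C spans 3018 bases and its canonical transcript 995 bases. Per kilobase of the canonical transcript, the CDKN2C share was 37.3% in ctrl-OE, 79.5% in MEIS2-OE and 56.1% in ctrl-KO, and CDKN2C exceeded CDKN2D in 6 of 6 ctrl-KO libraries as well.

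The summed INK4 mRNA was 10.3 ± 1.42 CPM per kb in ctrl-OE, 17.3 ± 1.55 CPM per kb in MEIS2-OE and 7.28 ± 0.829 CPM per kb in MEIS1-OE (SD, n = 6 each, exon union). The kinases they bind were more abundant on the same scale: CDK4 and CDK6 together had 88.7 CPM per kb in ctrl-OE, 88.4 in MEIS2-OE and 95.1 in MEIS1-OE. The ratio of these kinases to the INK4 sum was thus 8.66 in ctrl-OE, 5.12 in MEIS2-OE and 13.1 in MEIS1-OE at the level of mRNA. Per kilobase of the canonical transcript the INK4 sum was 14.3 CPM per kb in ctrl-OE, 38.0 in MEIS2-OE and 9.51 in MEIS1-OE, and the ratio was 9.71, 3.65 and 15.7, so the size of the difference depends on the length while its direction does not. Since the MEIS2-OE values contain CDKN2C, they are a description.

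**Figure D2:**
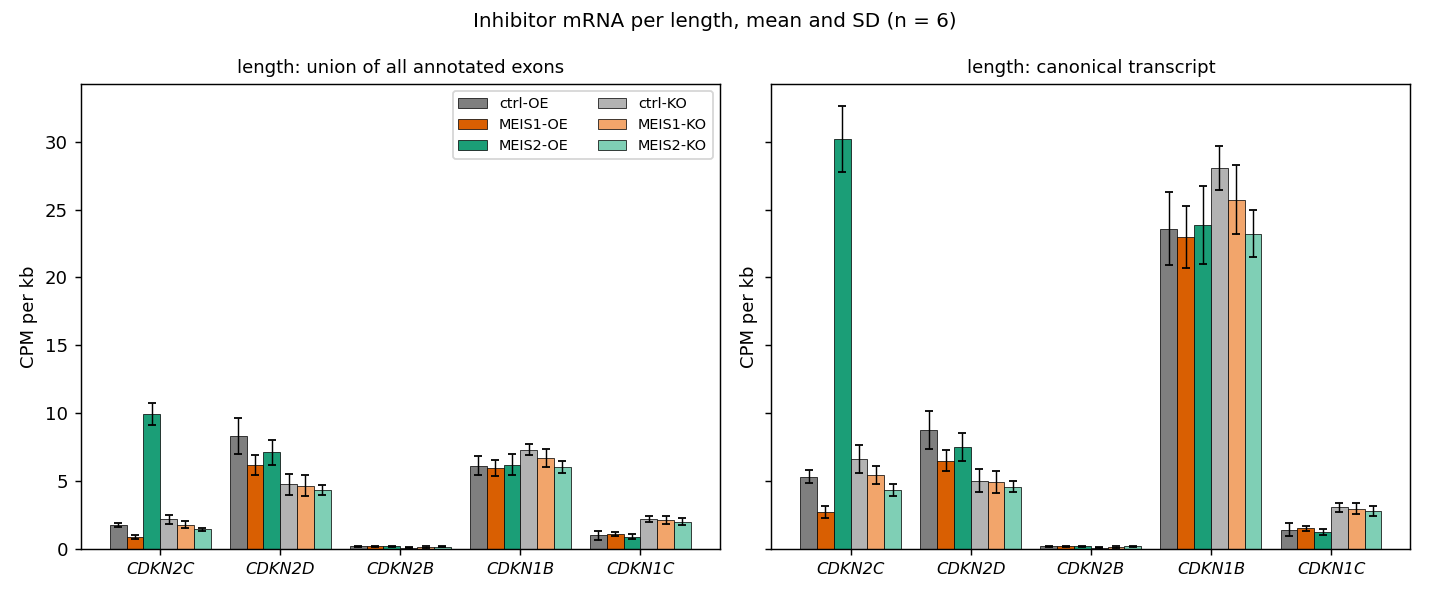
Mean mRNA per length (bars, CPM per kb from 0, with SD, n = 6) of 5 inhibitor genes in the 6 conditions, with the exon union as length at the left and the canonical transcript at the right; CDKN2A, at 0.0264 CPM per kb or less in every condition on the left-hand scale, is not drawn. CDKN2C reaches 9.95 CPM per kb in MEIS2-OE on the left and 30.2 on the right, and the place of CDKN1B among the inhibitors differs between the panels.

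No CIP/KIP member passed in either activation condition. CDKN1B, encoding KIP1, an inhibitor of cyclin E with CDK2, lies at chr12:12838432-12875303 (plus strand) and had medians of 56.2 CPM in ctrl-OE, 54.6 CPM in MEIS1-OE and 59.2 CPM in MEIS2-OE. The 3 ranges overlapped, and the log2 fold changes were -0.04 in MEIS1-OE and 0.02 in MEIS2-OE, the latter with a 95% interval from -0.14 to 0.17. In MEIS2-KO, where the libraries ran from 49.4 to 61.6 CPM with a median of 56.4 CPM, all 6 were below the 6 ctrl-KO libraries, narrowly at the edge, at 61.7 to 72.3 CPM with a median of 67.3 CPM. CDKN1B fell there with a log2 fold change of -0.27 ± 0.08 (SE) and an edgeR adjusted p of 0.0181, a call lost without replicate 1, 2, 4 or 5 with adjusted p-values up to 0.103. In MEIS1-KO the log2 fold change was -0.12 with an adjusted p of 0.575.

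CDKN1C, encoding KIP2, an imprinted inhibitor that restrains growth during development, lies at chr11:2904443-2907005 (minus strand) and was low in the activation system. Its medians were 2.20 CPM in ctrl-OE, 2.67 CPM in MEIS1-OE and 2.33 CPM in MEIS2-OE, and the highest ctrl-OE library, replicate 6, had 4.17 CPM. In the knockout system the medians were 5.49 CPM in ctrl-KO, 5.09 CPM in MEIS1-KO and 5.10 CPM in MEIS2-KO. No MEIS comparison of CDKN1C passed, with log2 fold changes from -0.15 to 0.12 against the controls.

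The D cyclins were abundant. CCND1, at chr11:69455924-69469242 (plus strand), had medians of 105 CPM in ctrl-OE, 114 CPM in MEIS1-OE, 117 CPM in MEIS2-OE, 151 CPM in ctrl-KO, 159 CPM in MEIS1-KO and 165 CPM in MEIS2-KO. It passed in none of the comparisons with the controls, where its log2 fold changes were 0.08, 0.15, 0.11 and 0.13 in this order of conditions. With a replicate block the MEIS2-KO value, 0.13, had an edgeR adjusted p of 0.0313.

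CCND2, which had 35.8 CPM per kb of exon union in ctrl-OE against 22.7 for CCND1, lies at chr12:4378937-4414519 (plus strand). It had 263 to 303 CPM in ctrl-OE with a median of 285 CPM, and 290 to 381 CPM in MEIS1-OE with a median of 315 CPM. The 2 ranges overlapped. CCND2 rose in MEIS1-OE by 0.18 ± 0.05 (SE) on the log2 scale with an adjusted p of 0.0194, and the call was lost without replicate 3 or 5 or with only the groups compared in the fit, with adjusted p-values up to 0.0618. Against MEIS2-OE, with a median of 280 CPM, the difference of 0.17 had an adjusted p of 0.0321 and was lost under 6 of 12 alternatives, with values up to 0.153. In the knockouts the medians were 444 CPM in ctrl-KO, 461 CPM in MEIS1-KO and 466 CPM in MEIS2-KO, with overlapping ranges and no call.

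CDK4 and CDK6, the kinases that the INK4 proteins bind, lie at chr12:58141510-58149796 and chr7:92234235-92465887, both on the minus strand. CDK4 had medians of 233 CPM in ctrl-OE, 256 CPM in MEIS1-OE and 230 CPM in MEIS2-OE, and 320, 303 and 299 CPM in ctrl-KO, MEIS1-KO and MEIS2-KO. CDK6 had medians of 156, 170 and 160 CPM in the activation conditions and 248, 261 and 250 CPM in the knockout conditions, in the same order. Neither kinase passed a comparison of a MEIS condition with its control. The intervals were narrow: in MEIS2-OE the log2 fold change of CDK4 lay between -0.10 and 0.08, and that of CDK6 between -0.09 and 0.18. CDK4 passed in MEIS1-OE without replicate 6, at 0.13 with an edgeR adjusted p of 0.0437.

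**Figure D3:**
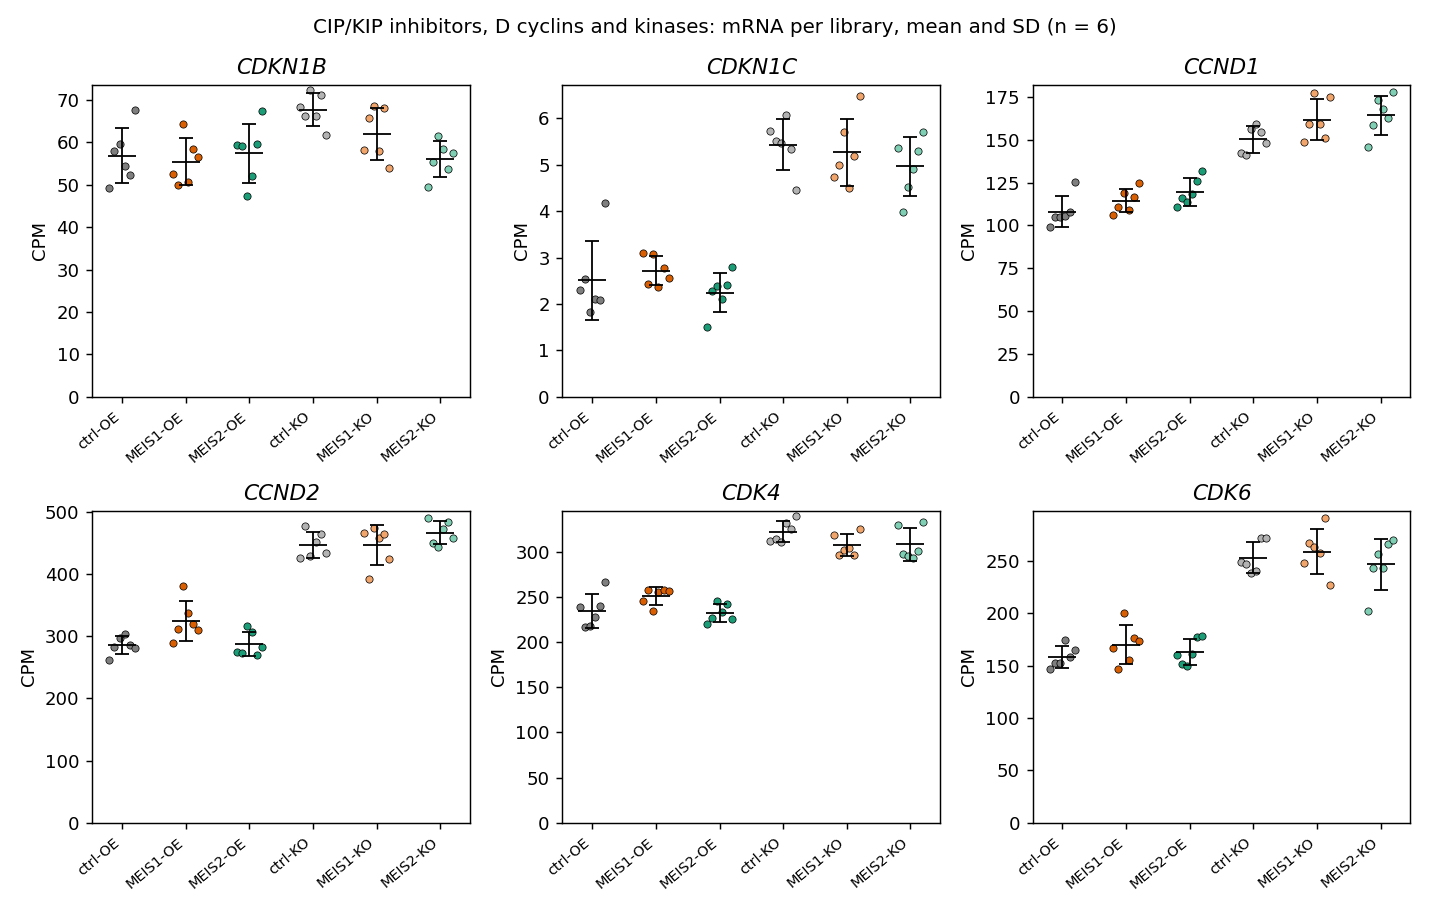
mRNA of CDKN1B, CDKN1C, CCND1, CCND2, CDK4 and CDK6 in CPM (vertical axes from 0, each with its own range) for the 6 conditions, with 1 point per library and bars for mean and SD (n = 6). For CDKN1C, CCND1, CCND2, CDK4 and CDK6 the ctrl-OE libraries all lie below the ctrl-KO libraries, while within a system the conditions lie close together. The share of all genes with ranges separate between these controls was not counted.

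Counted over the members, 3 of 10 passed in MEIS1-OE, 1 higher (CCND2) and 2 lower (CDKN2C and CDKN2D), beside 9.10% of all genes tested, 5.52% higher and 3.58% lower. The count ran from 2 to 4 under the alternatives, and CDKN2C within it was chosen with the ctrl-OE libraries used here. With the study's second criterion of an absolute log2 fold change above 0.58, 1 member (CDKN2C) remained beside 2.84% of all genes. In MEIS2-OE 0 of the 9 members other than CDKN2C passed in edgeR, near the 1.35% of all genes, with 1 at an unadjusted p under 0.05 and 0 in DESeq2. In MEIS1-KO 0 of 10 passed in edgeR, likewise near the 1.46% of all genes, with 1 at an unadjusted p under 0.05 and 0 in DESeq2. In MEIS2-KO 3 of 10 passed, 1 higher (CDKN2B) and 2 lower (CDKN2C and CDKN1B), beside 10.0% of all genes, 4.04% higher and 5.98% lower. Without replicate 1, 2 or 4 the count was 1, namely CDKN2C. CDKN2B and CDKN2C also passed the second criterion, beside 1.58% of all genes, but CDKN2C did so barely, with log2 fold changes from -0.71 to -0.50 under the alternatives and values short of the criterion without replicate 1 (-0.50) or 5 (-0.56). The median log2 fold change of the 10 members was 0.06 in MEIS1-OE and -0.06 in MEIS2-KO, against -0.0013 and -0.01 for all genes.

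For the direct comparisons, 1 of 9 members passed between MEIS1-OE and MEIS2-OE (CCND2, beside 7.75% of all genes), and 0 of 10 in edgeR between MEIS1-KO and MEIS2-KO, beside 0.0152% of all genes, with 1 at an unadjusted p under 0.05 and 0 in DESeq2. In the MEIS1 contrast 1 of 10 passed (CDKN2C, beside 3.48% of all genes), 0 without replicate 4 and 2 without replicate 6, where CDK4 was added. The 1 that passed, CDKN2C, was chosen with the ctrl-OE libraries that this contrast contains. In the MEIS2 contrast 0 of 9 passed in edgeR, beside 2.57% of all genes, with 2 at an unadjusted p under 0.05 and 0 in DESeq2.

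The activation and the knockout control differed in most members. Between ctrl-OE and ctrl-KO, 9 of 10 members passed, beside 51.4% of all genes tested, 27.5% higher and 23.9% lower. CDKN2D (log2 fold change 0.80) and CDKN2B (0.85) were higher in ctrl-OE, and CDKN2C (-0.31), CDKN1B (-0.25), CDKN1C (-1.12), CCND1 (-0.48), CCND2 (-0.65), CDK4 (-0.46) and CDK6 (-0.68) were lower. CDKN2C was chosen for its rise over these ctrl-OE libraries, in which a low level favoured the choice, so its value here is a description, and of the other 9 members 8 passed. The second criterion left 5 members, CDKN2D, CDKN2B, CDKN1C, CCND2 and CDK6, beside 22.1% of all genes. For CDKN2D, CDKN1C, CCND1, CCND2, CDK4 and CDK6 the 6 libraries of ctrl-OE and the 6 of ctrl-KO did not overlap. The share of all genes with separate ranges between these controls was not counted, so this is not read as particular to the members. Of the proliferation markers MKI67, TOP2A, PCNA and MCM2, 4 of 4 were lower in ctrl-OE as well, with a summed level of 1287 to 1515 CPM against 2272 to 2446 CPM in ctrl-KO. The 5 tested neuronal genes summed to 266 to 330 CPM against 758 to 876 CPM, of which most was MAP2, and 4 of them were lower in ctrl-OE. Of the 10 neural stem cell markers, 8 were lower in ctrl-OE, among them SOX1 (-1.54) and SOX2 (-1.39), and 1 was higher, SOX9 (0.66). Their median log2 fold change was -0.74. Among the 4 astrocyte genes 2 were lower and 1 higher, and among the 4 mesenchymal genes 1 was lower and 1 higher. The part of these in the differences was not tested.

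**Figure D4:**
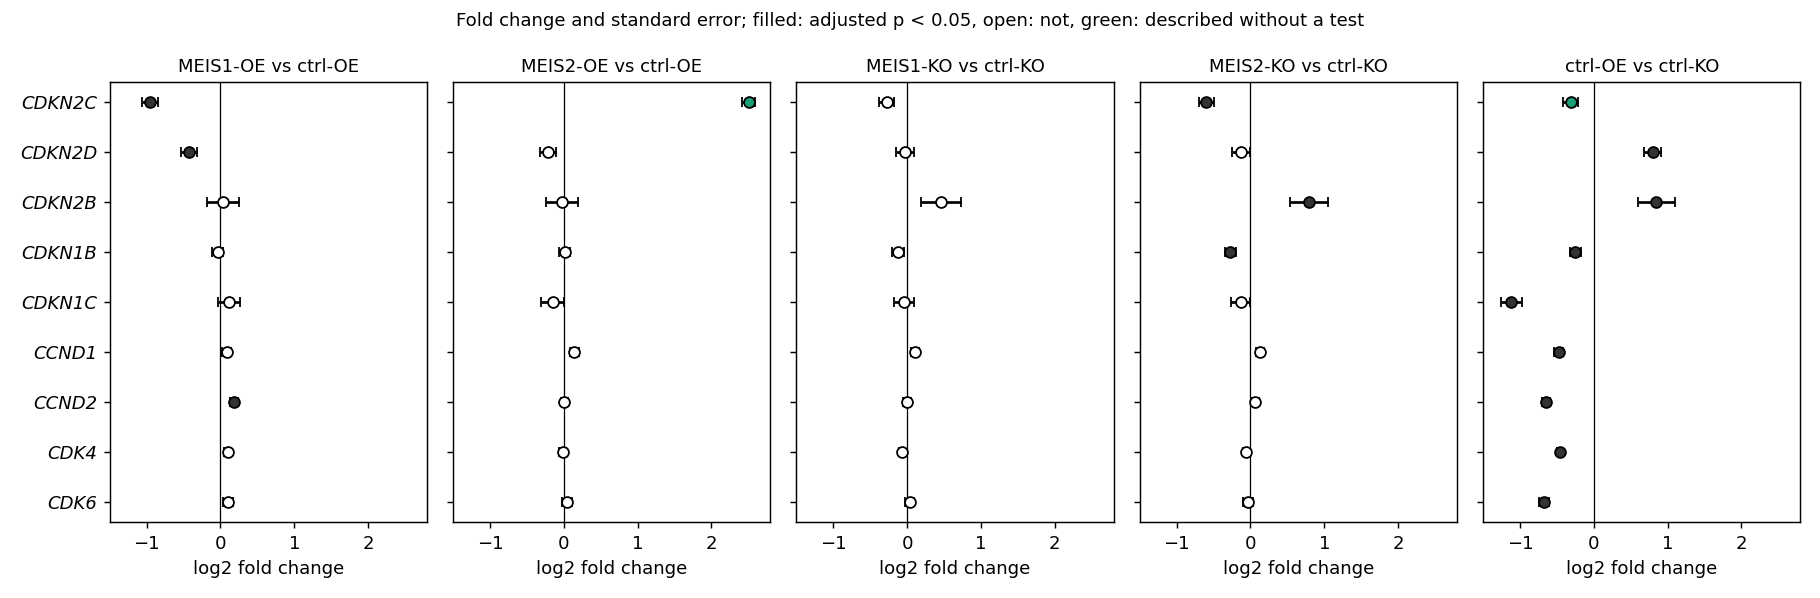
log2 fold change (points) and standard error (bars) of 9 members in the 4 MEIS conditions against their controls and in ctrl-OE against ctrl-KO; filled points have an adjusted p under 0.05, open points do not, and the green points are CDKN2C in MEIS2-OE and in ctrl-OE against ctrl-KO, given without a test. CDKN2A, with 0 to 5 counts per library, is not drawn, and CDKN2C at 2.50 stands apart in MEIS2-OE while the other 8 members lie between -0.22 and 0.15.

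In the conditions where CDKN2C fell, markers of proliferation and of cell type moved as well. Some cell type markers also moved in MEIS1-KO, where CDKN2C did not pass. In MEIS1-OE, 2 of 4 proliferation markers fell, beside 3.58% of all genes that were lower. They were MKI67 (-0.30 on the log2 scale) and TOP2A (-0.20), the latter in 6 of 12 alternatives. The summed level was 1141 to 1380 CPM against 1287 to 1515 CPM in ctrl-OE. In MEIS2-KO, 1 of 4 fell (MKI67, -0.33), beside 5.98% of all genes that were lower. The sums were 2035 to 2247 CPM against 2272 to 2446 CPM in ctrl-KO. In MEIS2-OE 0 of 4 passed in edgeR, beside 1.35% of all genes, and 0 in DESeq2, with 1 at an unadjusted p under 0.05. The sum was 1225 to 1385 CPM.

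Of all genes tested, 3.58% were lower and 5.52% higher in MEIS1-OE, and 5.98% were lower and 4.04% higher in MEIS2-KO. Of the 10 neural stem cell markers, SOX1 and PROM1 fell in MEIS1-OE, and SOX1, PROM1, PAX6 and FABP7 fell and VIM rose in MEIS2-KO. Under the alternatives these counts ran from 0 to 3 and from 3 to 9. The markers summed to 3385 to 4292 CPM in MEIS1-OE against 3057 to 3931 CPM in ctrl-OE, and to 5063 to 6146 CPM in MEIS2-KO against 4520 to 5023 CPM in ctrl-KO, VIM being the most abundant. Of the 5 neuronal genes, SYT1 rose in MEIS1-OE (0.26) and DCX, at 1.49 CPM or lower throughout, fell in MEIS2-KO (-0.997). Of the 4 mesenchymal genes, PDGFRB rose in MEIS1-OE (0.30), and COL1A1 (1.06) and COL1A2 (0.27) rose in MEIS2-KO. Their summed level was 263 to 363 CPM in MEIS2-KO against 209 to 278 CPM in ctrl-KO, and 211 to 291 CPM in MEIS1-OE against 197 to 305 CPM in ctrl-OE. In MEIS1-KO PAX6 fell (-0.42) and VIM (0.25) and COL1A1 (0.82) rose, beside 1.46% of all genes that passed there in either direction. The part of these markers in the fall of CDKN2C was not tested. In MEIS2-OE, where 1.35% of all genes passed in edgeR, 0 of the 10 stem cell markers passed in edgeR and in DESeq2, with 2 at an unadjusted p under 0.05. There 0 of the 4 mesenchymal genes passed in either tool or at an unadjusted p under 0.05.

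The other genes of the pathway were taken as a list of 28, from CDKN1A and the E and A cyclins over the RB and E2F families to the CDK-activating kinase. In MEIS2-OE, where CDKN2C was high, 0 of 28 passed in edgeR, beside 1.35% of all genes, and 0 in DESeq2, with 4 at an unadjusted p under 0.05 and 1 with a replicate block, and the median log2 fold change was -0.02 against -0.01 for all genes.

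In MEIS1-OE 3 of 28 were lower and 0 higher, beside 9.10% of all genes, 3.58% lower and 5.52% higher, with a median of -0.09. The 3 were CDKN3 (-0.33, edgeR adjusted p = 4.06e-04), a phosphatase acting on CDK2, E2F2 (-0.27, adjusted p = 0.00828), an activating E2F, and CDC25A (-0.14, adjusted p = 0.0253), the phosphatase that removes inhibitory phosphates from CDKs. This count was 1 without replicate 4 or 6, 8 without replicate 3, 8 with a replicate block and 6 in DESeq2. CDKN3 passed under all 12 alternatives.

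In MEIS2-KO 8 of 28 were lower and 2 higher, with a median of -0.11, beside 10.0% of all genes, 5.98% lower and 4.04% higher. The higher ones were CDKN1A (0.52, adjusted p = 1.29e-05), the CIP1 inhibitor known as a p53 target, and MYC (0.51, adjusted p = 0.0261), a growth-promoting transcription factor. The lower ones with the smallest adjusted p were SKP2 (-0.29, adjusted p = 3.75e-05), the ubiquitin ligase subunit that marks the CDKN1B protein for degradation, and the E cyclins CCNE2 (-0.38) and CCNE1 (-0.20), partners of CDK2. CDKN1A, SKP2, CCNE1 and CCNE2 passed under all 12 alternatives, while the count of 10 fell to 4 without replicate 1 or 2 and to 5 without replicate 4 or 5.

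CDKN1A was the most abundant inhibitor per length, with 109 CPM per kb of exon union in ctrl-OE. It had 310 to 398 CPM in ctrl-KO with a median of 352 CPM, and 440 to 536 CPM in MEIS2-KO with a median of 513 CPM. All MEIS2-KO libraries were above all controls, and the share of all genes with such separate ranges was not counted. MEIS1-KO had 385 to 516 CPM with a median of 454 CPM, overlapping with the controls. CDKN1A rose there by 0.39 on the log2 scale with an edgeR adjusted p of 0.00218. CCNE1 (-0.20) and SKP2 (-0.19) were lower, each passing in 7 of 12 alternatives, with adjusted p-values up to 0.121 and 0.114. In MEIS1-KO 3 of 28 passed, beside 1.46% of all genes. This count was 1 without replicate 1 or 3 or with only the groups compared in the fit, 5 in DESeq2 and 6 with a replicate block. The ctrl-KO guides have no target, so the presence of a cut genome and the loss of the MEIS gene cannot be told apart in these comparisons. In MEIS2-OE CDKN1A had a log2 fold change of 0.02, and the MEIS2 contrast of -0.50 had an adjusted p of 0.00294.

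Between the controls, 23 of 28 passed, 19 lower and 4 higher in ctrl-OE, beside 51.4% of all genes, 23.9% lower and 27.5% higher, with a median of -0.40 against 0.05 for all genes. The lower ones with the smallest adjusted p were CKS1B (-0.79), CDC25A (-0.63) and CCNA2 (-0.76), and the higher ones were led by CCND3 (0.62), the D cyclin outside the 10 members, CDK7 (0.36) and MNAT1 (0.28) of the CDK-activating kinase. The summed level of the 28 genes was 2061 to 2231 CPM in ctrl-OE and 2635 to 2708 CPM in ctrl-KO.

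Genes next to CDKN2C were read as a local comparison. FAF1, a ubiquitin-binding protein gene transcribed away from CDKN2C, had a mean of 42.5 ± 2.58 CPM in ctrl-OE and 41.6 ± 2.72 CPM in MEIS2-OE (SD, n = 6 each). Its log2 fold change of -0.03 ± 0.05 (SE) did not pass. In MEIS1-OE FAF1 fell, to 37.2 ± 1.85 CPM, with a log2 fold change of -0.19 ± 0.05 (SE) and an edgeR adjusted p of 0.0133, and in MEIS2-KO it had -0.12 with an adjusted p of 0.141. The next tested protein-coding genes, DMRTA2 and AGBL4 on the side of FAF1 and RNF11, TTC39A and EPS15 on the other, lie 261639 to 936791 bases away and passed in no MEIS comparison. In MEIS2-OE their log2 fold changes ran from -0.23 to 0.17.

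**Figure D5:**
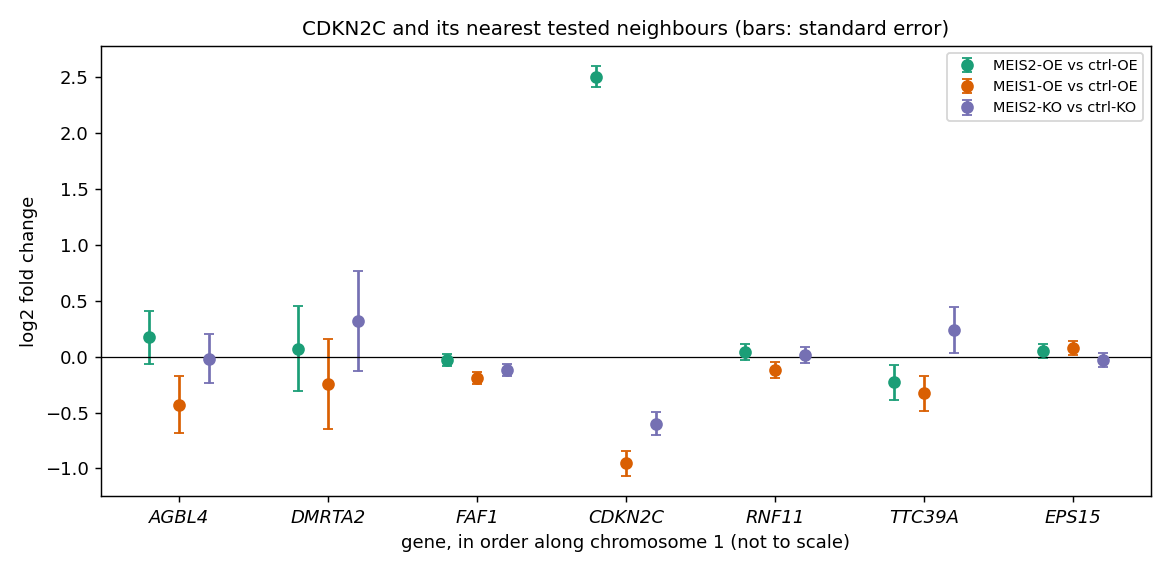
log2 fold change (points) and standard error (bars) of CDKN2C and its 6 nearest tested protein-coding neighbours, in order along the chromosome and not to scale, for MEIS2-OE and MEIS1-OE against ctrl-OE and MEIS2-KO against ctrl-KO. In MEIS2-OE the neighbours lie between -0.23 and 0.17, and CDKN2C lies at 2.50.

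On chromosome 9, MTAP, the methionine salvage enzyme gene beside CDKN2A, had log2 fold changes of -0.02 in MEIS1-OE and -0.05 in MEIS2-OE, and it fell in MEIS2-KO (-0.16, adjusted p = 0.0365). CDKN2B-AS1, antisense to CDKN2B and overlapping exons of CDKN2A, had at most 1 count in a library. TSPAN31 overlaps exons of CDK4 on the other strand and GPR19 overlaps CDKN1B, while a lncRNA annotated opposite exons of CDKN2C was not analysed here. The library kit marks strand, but whether counting used it is not given in the sources used here, so such partners may share reads.

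The genes most like CDKN2C over the 36 libraries were read from log2 CPM centred within each CRISPR system, among 13463 genes with a mean of at least 1 CPM. They were MEIS2 itself (r = 0.95), SRD5A3 (r = 0.93), a steroid reductase of dolichol synthesis, TMEM165 (r = 0.93), a Golgi membrane protein, RASSF8 (r = 0.93) and KCNS1 (r = 0.92), a potassium channel subunit. Their mean log2 CPM in ctrl-OE, MEIS1-OE and MEIS2-OE was 5.37, 5.35 and 7.42 for TMEM165 and 6.01, 6.03 and 7.61 for RASSF8, high in MEIS2-OE as with CDKN2C but without its lower value in MEIS1-OE. These points share the same 36 libraries, and the likeness rests on the means of the conditions: within conditions the 5 coefficients ran from -0.43 to 0.06. CDKN2C was chosen for its high level in MEIS2-OE, so genes high there, MEIS2 among them, were favoured by that choice. The ranking is therefore a description and shows no link between these genes and CDKN2C. Without centring, 4 of the same 5 genes were named.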

How the data were processed

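RNA-seq counts were read for 36 libraries of hNSC in 6 conditions, assigned to condition and replicate by their titles. As deposited by the authors, the values are raw counts per gene symbol, without normalization. Per the series' text, poly-A RNA with a RIN above 7 was made into stranded libraries, sequenced as paired reads of 100 bases, aligned to hg19 with STAR 2.4.2a and counted with HTSeq 0.6.0. The submitters' processing notes name Trimmomatic 0.39 and STAR 2.7.0a instead, so the version is uncertain. All 36 columns were mapped, with totals of 15429985 to 22940493 (median 20324720), and no pair of libraries of the same condition agreed within sampling noise. Pairs from different conditions were not compared in this way.

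Genes with at least 10 counts summed over the libraries (19689) were fitted in edgeR 4.0.16 (R 4.3.3, limma 3.58.1) with TMM scaling and 1 mean per condition, and contrasts were tested by the two-sided quasi-likelihood F test with Benjamini-Hochberg adjustment over all tested genes. Passing means an adjusted p under 0.05. Fold changes use a prior count of 0.125, log2 CPM for correlations one of 2, and the biological coefficient of variation was 0.0915. The procedure was tested on simulated data. Alternatives were RLE size factors, filterByExpr or no filter, a replicate block, a fit restricted to the groups compared, omission of each replicate number from every condition in turn, and DESeq2 1.42.0.

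Positions and lengths came from GENCODE v44lift37 on GRCh37, and start windows from RefSeq (table of GRCh38.p14). Proteins were not used here. The members and the lists were chosen with earlier results of these data known. All members are named, and of the pathway list up to 3 genes in each direction with the smallest adjusted p. FAF1 and the other neighbours are the 3 nearest tested protein-coding genes on each side of CDKN2C.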

Additional observations from a re-analysis of the deposited data

Results flagged for a closer look

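Of the 60 sets of 6 libraries formed by 10 genes and 6 conditions, 2 held a library far from the others by Dixon's criterion, which chance meets in about 1 of 20 sets. Both were the highest value of ctrl-OE replicate 6: CDKN1C at 4.17 CPM, against 1.83 to 2.54 CPM in the other 5 libraries, and CCND1 at 125 CPM, against 99.2 to 108 CPM. In differences between conditions, CCND2 was higher in MEIS1-OE than in MEIS2-OE by a log2 fold change of 0.17 (edgeR adjusted p = 0.0321), a call that 6 of 12 alternatives lost. The MEIS1-OE effect on CDKN2C differed from the MEIS1-KO effect by -0.68 on the log2 scale (edgeR adjusted p = 0.00406), lower in 6 of 6 MEIS1-OE libraries than in ctrl-OE, and it was lost without replicate 4 (adjusted p = 0.0640). The ctrl-OE libraries in this difference also took part in the choice of CDKN2C.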

How the results depend on the processing

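Of 87 tested values of the 10 members in 9 comparisons, 77 kept their side of the threshold under every alternative run, 10 did not, and no passing value reversed. For CDKN2A 11 of the 12 alternatives gave a value, since filterByExpr removed it. The 3 values of CDKN2C that contain MEIS2-OE have no test. Its value in ctrl-OE against ctrl-KO, read above as a description, is counted among the 87. It is also among the 10, since it was lost without replicate 1. Between MEIS1-OE and MEIS2-OE the count of members passed went from 1 to 0 with RLE size factors and with only the groups compared in the fit. With replicates left out in turn this count ranged from 0 to 2, that in MEIS2-KO from 1 to 2, and that in the MEIS1 contrast from 0 to 2. With a replicate block, 4 members passed in MEIS2-KO, CCND1 being added (adjusted p = 0.0313), and no other member's call changed. Same-numbered libraries of different conditions deviated together weakly, with a mean correlation of 0.0361 against -0.0073 for other numbers. Their correlations ran from -0.16 to 0.39 and were above 0.1 in 16 of 90 pairs. A replicate block raised the number of all genes passed from 1974 to 2386 in MEIS2-KO and from 287 to 458 in MEIS1-KO. Between the 2 knockouts it stayed at 3. The labels do not say whether the numbers mark shared batches. RLE scaling moved no member's mean CPM by more than its SD, whereas the canonical length, added after the data were seen, moved the level per kilobase of CDKN2C in every condition. Counts of 0 to 23 limit CDKN2A and CDKN2B. Where a call was lost, the cause was not tested.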
